A study of Mus musculus with 6 samples.

Results

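Lrfn2 and Mdga1 encode synaptic adhesion proteins, and both were listed by the authors as higher in the prefrontal cortex of mice that responded to ketamine than in mice that did not. They are the 2 members described here, of 1375 genes in the deposited table, and were found by their gene names in it. All 1375 genes, or 100%, had been selected by the authors with a p-value below 0.05 and a higher level in responders, so the values below that set responders against nonresponders describe the selection and are not tested again. Ketamine blocks the NMDA receptor, a glutamate receptor, and has a rapid antidepressant action.

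The samples were 6 male C57bl/6j mice, siblings housed 3 to a cage, each injected into the peritoneum with 10 mg/kg ketamine 24 hours before sacrifice. The 3 responders (labelled Res) and the 3 nonresponders (labelled NR) had been told apart by behaviour, in forced swimming and in feeding suppressed by novelty. No mouse without ketamine was among the samples, no age is given in the labels, and every library carries batch number 1. PolyA RNA of the whole tissue was sequenced for each mouse, so a gene used by only some cells is averaged over all of them.

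Lrfn2 encodes SALM1, a leucine-rich repeat and fibronectin type III protein of the postsynaptic membrane of excitatory synapses. Its cytoplasmic tail ends in a motif that binds the PDZ domains of the scaffold PSD-95, and SALM1 associates with NMDA receptors. Mdga1 encodes a protein held to the membrane by a glycosylphosphatidylinositol (GPI) anchor. It binds neuroligin 2 on the same cell and keeps it from meeting neurexin across the cleft, which limits the formation of inhibitory synapses. The pair therefore holds an adhesion protein of the excitatory synapse and a brake on adhesion at the inhibitory synapse.

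The coding ends show how the products differ, and are printed 5′ to 3′ on the coding strand, without the stop codon, from the GENCODE M21 transcript with the longest coding sequence in the consensus coding set (build GRCm38, which is mm10). Capitals mark the last 12 bases of the Lrfn genes, where the PDZ-binding motif lies in the members that carry it.
Lrfn2, chr17:49097170-49097214, plus strand: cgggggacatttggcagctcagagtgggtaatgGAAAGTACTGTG
Lrfn1, chr7:28467436-28467480, plus strand: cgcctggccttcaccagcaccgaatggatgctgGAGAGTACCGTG
Lrfn4, chr19:4612080-4612124, minus strand: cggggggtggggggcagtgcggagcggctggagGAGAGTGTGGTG
Lrfn3, chr7:30355641-30355685, minus strand: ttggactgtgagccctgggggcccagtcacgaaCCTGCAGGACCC
Lrfn5, chr12:61844120-61844164, plus strand: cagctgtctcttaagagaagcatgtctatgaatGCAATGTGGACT
Mdga1, chr17:29832311-29832355, minus strand: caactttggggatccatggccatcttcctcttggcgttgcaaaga
Of the 12 capital bases of Lrfn2, 10 are the same in Lrfn1 and 8 in Lrfn4, the other members known to end in a PDZ-binding motif. In Lrfn5, 3 of the 12 are the same, and in Lrfn3 there are 0. Mdga1 has no capitals because its coding end specifies the signal that is replaced by the GPI anchor, not a cytoplasmic tail. Of the 5 Lrfn genes, Lrfn2 was in the table, and of the 2 Mdga genes, Mdga1 was. The other members have no value here.

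Both genes lie on chromosome 17. Lrfn2 (ENSMUSG00000040490) runs from 48932379 to 49097588 on the plus strand in the table's mm10 positions. Its 1 annotated transcript has 3 exons, and a microRNA gene of the opposite strand, Gm44304, lies within the last of them. Mdga1 (ENSMUSG00000043557) runs from 29827956 to 29970087 on the minus strand. It has 10 annotated transcripts, and the antisense gene Gm16758 lies inside its span. Neither overlapping gene was in the table. As the strand setting of the counting is not given in the sources used here, reads of a gene and of its antisense partner cannot be told apart.

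Lrfn2 stood at 6.40, 7.33 and 6.62 FPKM in nonresponder replicates 1, 2 and 3, and at 11.8, 10.4 and 7.15 FPKM in responder replicates 1, 2 and 3. FPKM is the authors' read count divided by gene length in kilobases and by a scale set for each library. Responder replicates 1 and 2 lay well above all nonresponders, while responder replicate 3 lay among them, below nonresponder replicate 2, so the groups overlap. The nonresponder mean was 6.78 ± 0.483 FPKM and the responder mean 9.79 ± 2.40 FPKM (SD, n = 3 each), which is 1.44-fold or 0.53 on the log2 scale. These values rest on 383, 403 and 409 reads in nonresponders and on 695, 543 and 343 reads in responders.

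For responder replicate 3, the exact 95% Poisson interval of the Lrfn2 count corresponds to 6.41 to 7.95 FPKM, and for responder replicate 1 to 11.0 to 12.7 FPKM. The SD among responders was 24.5% of their mean, while counting error alone corresponds to 4.36%. Among nonresponders the SD was 7.13% of the mean, against 5.01% from counting. Such intervals cover counting error only, since reads without molecular identifiers are not independent molecules. Without responder replicate 3 the log2 difference of Lrfn2 was 0.71, and without responder replicate 1 it was 0.37.

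Mdga1 stood at 1.21, 1.49 and 1.11 FPKM in nonresponder replicates 1, 2 and 3, and at 2.69, 2.02 and 1.80 FPKM in responder replicates 1, 2 and 3. Every responder lay above every nonresponder, with responder replicate 1 again the highest and responder replicate 3 again the lowest of its group. The nonresponder mean was 1.27 ± 0.199 FPKM and the responder mean 2.17 ± 0.460 FPKM (SD, n = 3 each), which is 1.71-fold or 0.77 on the log2 scale. The counts were 213, 241 and 201 reads in nonresponders and 463, 310 and 254 reads in responders.

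The gap between the Mdga1 groups was narrow. Responder replicate 3 was 1.21 times the highest nonresponder, and their 95% Poisson intervals, 1.59 to 2.04 FPKM and 1.31 to 1.69 FPKM, overlap. The SD was 15.6% of the mean in nonresponders and 21.2% in responders, against 6.77% and 5.40% from counting alone. The log2 difference was 0.89 without responder replicate 3 and 0.59 without responder replicate 1. Groups that do not overlap were common in the table, with 1010 listed genes, or 73.5%. Without responder replicate 3 there were 1019 such genes, or 74.1%, Lrfn2 and Mdga1 both among them.

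**Figure D1:**
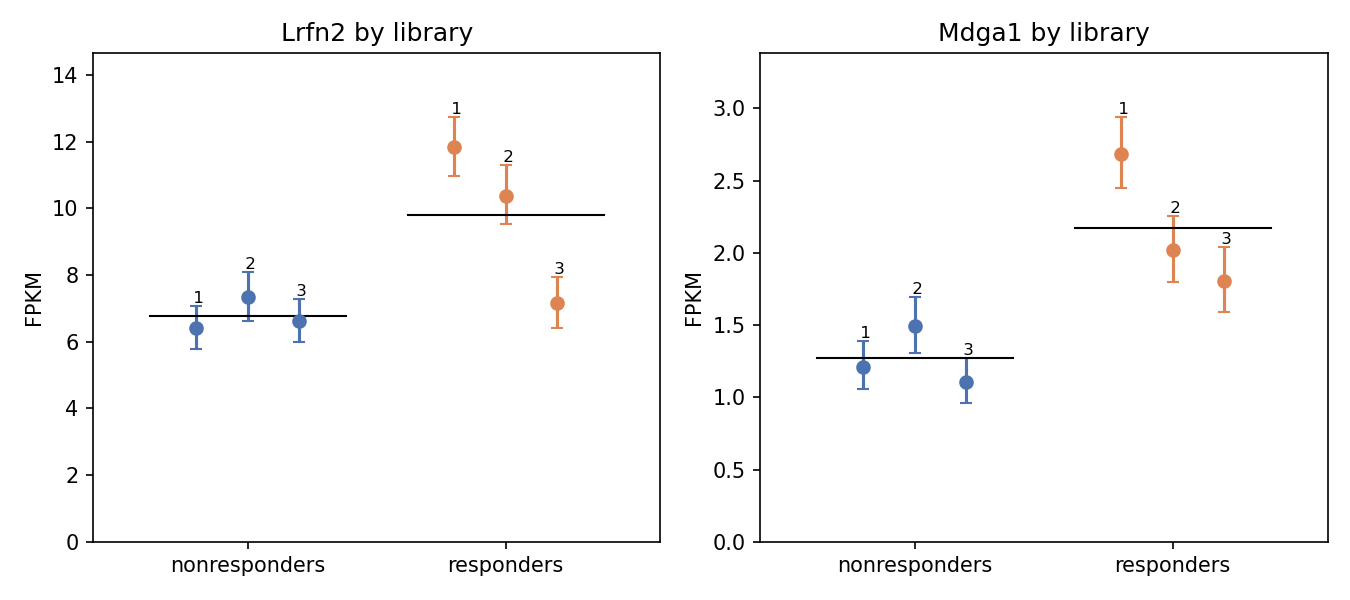
FPKM of Lrfn2 (left) and Mdga1 (right) in each library, with the replicate number beside each point. Vertical bars are exact 95% Poisson intervals of the count, and horizontal lines are group means. Responder replicate 3 falls among the nonresponders for Lrfn2, at 7.15 FPKM, and above them for Mdga1, at 1.80 FPKM.

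In the authors' deposited table, the log2 fold change of nonresponders over responders was -0.53 for Lrfn2 and -0.77 for Mdga1. The authors' deposited table gives Lrfn2 a p-value of 0.0101, which after adjustment is 0.196, and Mdga1 a p-value of 0.000383, which after adjustment is 0.0548. Neither gene passed an adjusted threshold of 0.05, which 19 of the listed genes, or 1.38%, did in the authors' deposited table. Mdga1 passed a threshold of 0.1 with 50 listed genes, or 3.64%, and both genes one of 0.2 with 375, or 27.3%. Mdga1 was the 23rd gene by p-value and Lrfn2 the 372nd. By size of the log2 difference, Mdga1 was the 366th and Lrfn2 the 786th of 1358 genes with a ratio, whose median was 0.57. In bulk tissue, more cells of a type that uses a gene and more RNA of it per cell cannot be told apart.

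On the per-length scale Lrfn2 was the more abundant of the pair in all 6 libraries. The ratio of Lrfn2 to Mdga1 FPKM was 5.28, 4.91 and 5.97 in nonresponder replicates 1, 2 and 3, and 4.40, 5.14 and 3.96 in responder replicates 1, 2 and 3. The scale of a library cancels from this ratio. The responders had the 2 lowest ratios, and responder replicate 2 lay within the nonresponder range. The mean ratio was 5.38 ± 0.540 in nonresponders and 4.50 ± 0.595 in responders (SD, n = 3 each). The authors' gene length was 3202 bases for Lrfn2 and 9395 bases for Mdga1, which merges its many transcripts, so the ratio would be lower if the transcripts in use were shorter. Among all listed genes, Lrfn2 ranked 845th and Mdga1 1195th by mean FPKM, both under the median of 12.3 FPKM.

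The order of the responders sets both genes apart from most of the table. Responder replicate 3 was the highest library in 1204 listed genes, or 87.6%, and the lowest responder in 82, or 5.96%, among them Lrfn2 and Mdga1. Levels falling from responder replicate 1 through 2 to 3, the order of both genes, occurred in 44 listed genes, or 3.20%. Part of this order lay within counting error. The exact Poisson intervals overlapped between responder replicates 1 and 2 for Lrfn2, at 11.0 to 12.7 and 9.52 to 11.3 FPKM. For Mdga1 they overlapped between responder replicates 2 and 3, at 1.80 to 2.26 and 1.59 to 2.04 FPKM. In both genes the interval of responder replicate 3 lay below that of responder replicate 1. Over the nonresponder mean, the log2 level of Lrfn2 was 0.80, 0.61 and 0.08 in responder replicates 1, 2 and 3, and that of Mdga1 was 1.08, 0.67 and 0.50. The medians over listed genes were 0.23, 0.31 and 1.02 in the same libraries. Responder replicate 3 lay below the highest nonresponder in 9 listed genes, or 0.655%, and Lrfn2 was among these. A gene low in responder replicate 3 could enter the table only if responder replicates 1 and 2 were high enough to make up for it, so these shares hold for listed genes and not for all genes.

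**Figure D2:**
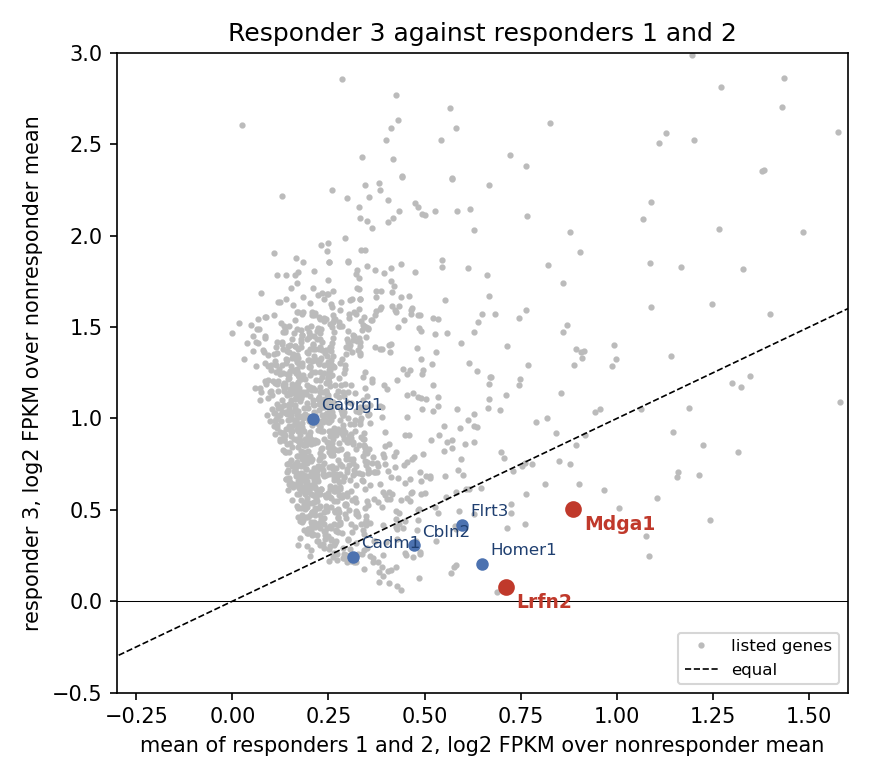
Each point is a listed gene, with the mean of responder replicates 1 and 2 on the horizontal axis and responder replicate 3 on the vertical axis, both as log2 FPKM over the gene's nonresponder mean. The axes hold 1297 of the 1357 genes with both values, and the dashed line marks equal levels. Lrfn2, at 0.08 on the vertical axis, and Mdga1, at 0.50, lie below the line, while most listed genes lie above it.

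Scaling the libraries on the listed genes themselves lowered both differences. With trimmed mean of M values (TMM) scaling by edgeR over the listed genes, the log2 difference was 0.12 for Lrfn2 and 0.34 for Mdga1. This scaling also took the median of all listed genes from 0.57 to 0.02, since genes selected as higher in responders then set the scale. Measured from the median of all listed genes, the log2 difference of Lrfn2 was -0.04 with the authors' scale and 0.10 with TMM, and that of Mdga1 was 0.20 and 0.32. Under TMM, responder replicates 1 and 2 stayed above the nonresponder mean, at 0.57 and 0.30 for Lrfn2 and at 0.85 and 0.36 for Mdga1 on the log2 scale. Responder replicate 3 then fell below it, at -0.90 for Lrfn2 and -0.47 for Mdga1.

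**Figure D3:**
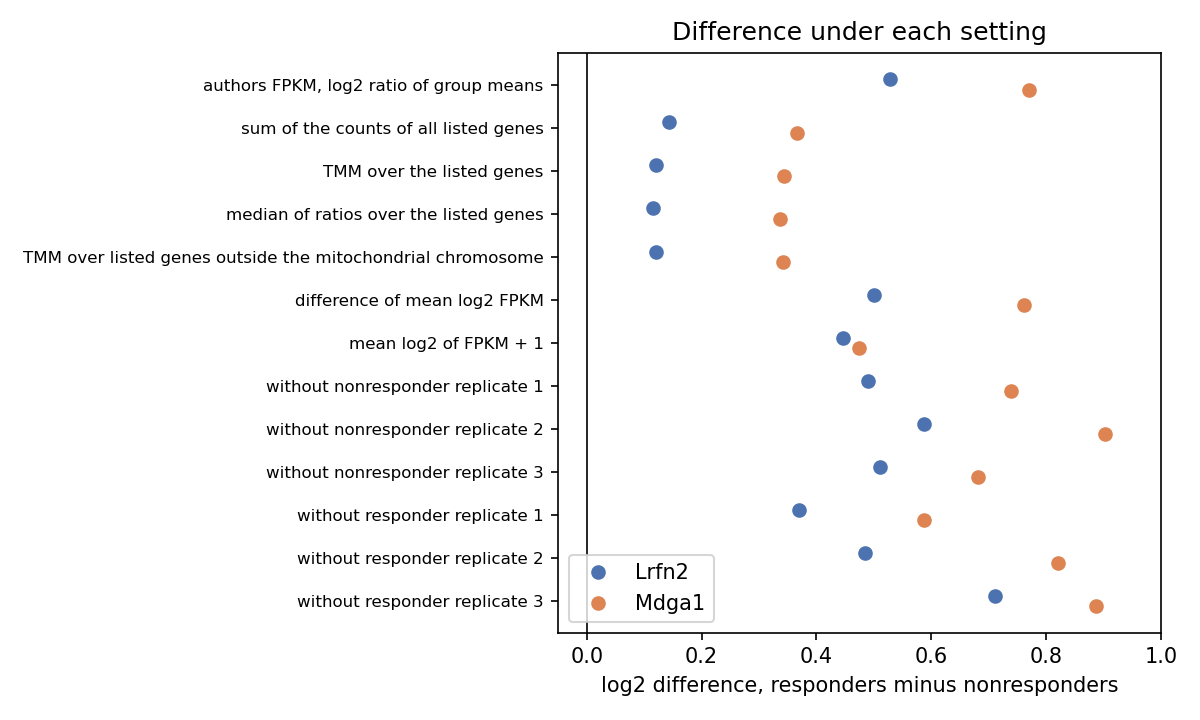
Log2 difference of Lrfn2 and Mdga1, responders minus nonresponders, under each scaling, summary and left-out library. Each setting was changed alone, and all values are above 0, in genes that had been selected as higher in responders. The 4 scalings over listed genes give the lowest, from 0.11 to 0.14 for Lrfn2 and from 0.34 to 0.37 for Mdga1.

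Other genes of synaptic adhesion and signalling were looked up in the table by name. Of 121 genes in 10 lists of synaptic adhesion families and postsynaptic partners, 7 were listed, Lrfn2 and Mdga1 included. Of these 7, 0 passed the adjusted threshold of 0.05 in the authors' deposited table, beside 1.38% of all listed genes. At so low a share, 7 genes are too few to show a shortfall. How many genes the authors tested is not given in the sources used here, so the share of list genes that were listed has no background to be read against. MDGA proteins bind neuroligins and keep them from neurexins. None of the 6 neuroligins and neurexins with an entry in the reference gene names was in the table. Nlgn4l, also in that list, has no entry in those names and could not be looked up. None of the 3 LAR receptor phosphatases, presynaptic receptors that SALM3 and SALM5 bind, and none of the 7 teneurins and latrophilins was in it either. Of 20 other leucine-rich repeat proteins, 27 immunoglobulin and cadherin adhesion proteins and 9 cerebellins and related genes, 1 each was listed. Of 23 excitatory partners, which include PSD-95 and the NMDA receptor subunits, only Homer1 was listed. The median log2 difference of the 7 was 0.52, beside 0.57 over all listed genes.

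Among the other adhesion genes, Flrt3, a leucine-rich repeat protein that binds latrophilins, stood at 5.89, 5.42 and 4.89 FPKM in nonresponders and at 7.28, 9.07 and 7.22 FPKM in responders, replicates 1 to 3. Cadm1, the immunoglobulin adhesion protein SynCAM 1, stood at 28.1, 29.7 and 29.6 FPKM and at 34.6, 37.9 and 34.5 FPKM. The groups did not overlap in either gene, as in 73.5% of all listed genes, and the folds were 1.46 and 1.22. Cbln2, a secreted cerebellin that bridges neurexins to postsynaptic receptors, stood at 17.6, 11.9 and 11.5 FPKM and at 20.8, 17.1 and 16.9 FPKM. Its nonresponder replicate 1 lay above responder replicates 2 and 3, so the groups overlap. The authors' deposited table gives adjusted p-values of 0.0889 to Flrt3, 0.194 to Cadm1 and 0.285 to Cbln2.

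Homer1, a scaffold of the postsynaptic density with an activity-induced short form, stood at 23.3, 19.9 and 20.1 FPKM in nonresponders and at 34.6, 31.6 and 24.3 FPKM in responders. Its responders fell in the same order as those of Lrfn2 and Mdga1, an order found in 3.20% of all listed genes. All lay above the nonresponders, as in 73.5% of all listed genes. Of 18 inhibitory partners, 1 was listed. Gabrg1, a gamma subunit of the GABA-A receptor, stood at 3.31, 3.34 and 3.96 FPKM and at 3.76, 4.42 and 7.07 FPKM. Its responder replicate 3 was the highest library and the groups overlapped, unlike Mdga1, whose responder replicate 3 was the lowest of its group. The authors' deposited table gives adjusted p-values of 0.0987 to Homer1 and 0.256 to Gabrg1.

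**Figure D4:**
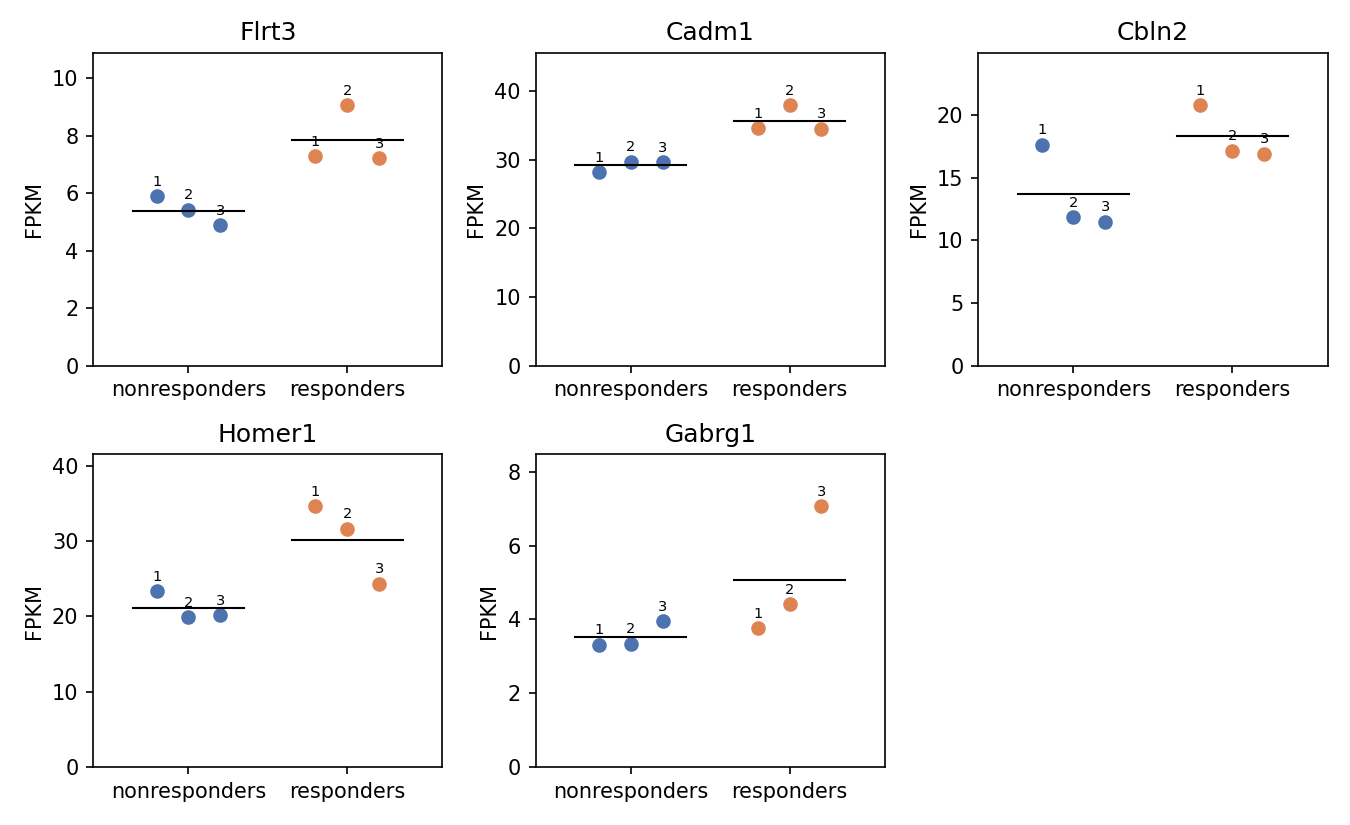
FPKM per library of the 5 other listed genes of the synaptic lists, with replicate numbers beside the points and group means as lines. Responder replicate 3 is the lowest responder in Flrt3, Cadm1, Cbln2 and Homer1, as in 5.96% of all listed genes. In all of these but Homer1 it nearly ties with the next responder. The values are 7.22 beside 7.28 FPKM in Flrt3, 34.5 beside 34.6 FPKM in Cadm1 and 16.9 beside 17.1 FPKM in Cbln2. It is the highest library in Gabrg1, at 7.07 FPKM, as in 87.6% of all listed genes.

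Listed genes with the most similar profile were found by the root mean square difference of log2 FPKM over the 6 libraries, each gene set to its own nonresponder mean. The comparison covered the 1191 other listed protein coding genes with a mean of at least 1 FPKM, and all of them share the direction by selection. For Lrfn2 the most similar were Fgf2 at 0.0871, Inhba at 0.128, Homer1 at 0.141 and Gpr17 at 0.163, beside a median of 0.476. Fgf2 encodes a growth factor, Inhba the activin A subunit, which is induced by neuronal activity, and Gpr17 a receptor of oligodendrocyte precursors on the way to maturing. Fgf2 stood at 0.860, 0.876 and 0.970 FPKM in nonresponders and at 1.54, 1.36 and 0.935 FPKM in responders, on 95 to 192 reads. As in Lrfn2, its responder replicate 3 lay among the nonresponders. The Fgf2 gene overlaps Nudt6 on the opposite strand.

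For Mdga1 the most similar were Dio2 at 0.177, Creld2 at 0.181, Kcnj2 at 0.194 and Hspa1b at 0.202, beside a median of 0.473. Dio2 is the deiodinase that activates thyroid hormone, Creld2 a protein of the endoplasmic reticulum induced by stress there, Kcnj2 an inward rectifier potassium channel and Hspa1b an inducible Hsp70. Reads of Hspa1b may be shared with its near-identical copy Hspa1a. Kcnj2 stood at 2.19, 1.99 and 1.86 FPKM in nonresponders and at 4.55, 3.93 and 2.57 FPKM in responders. Lrfn2 itself was the 7th most similar gene to Mdga1, at 0.225, and Mdga1 the 34th to Lrfn2. These lists depended on single libraries. Of the 8 names, 1 remained without responder replicate 1, 3 without responder replicate 3, 4 without nonresponder replicate 1 and 5 without nonresponder replicate 2.

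**Figure D5:**
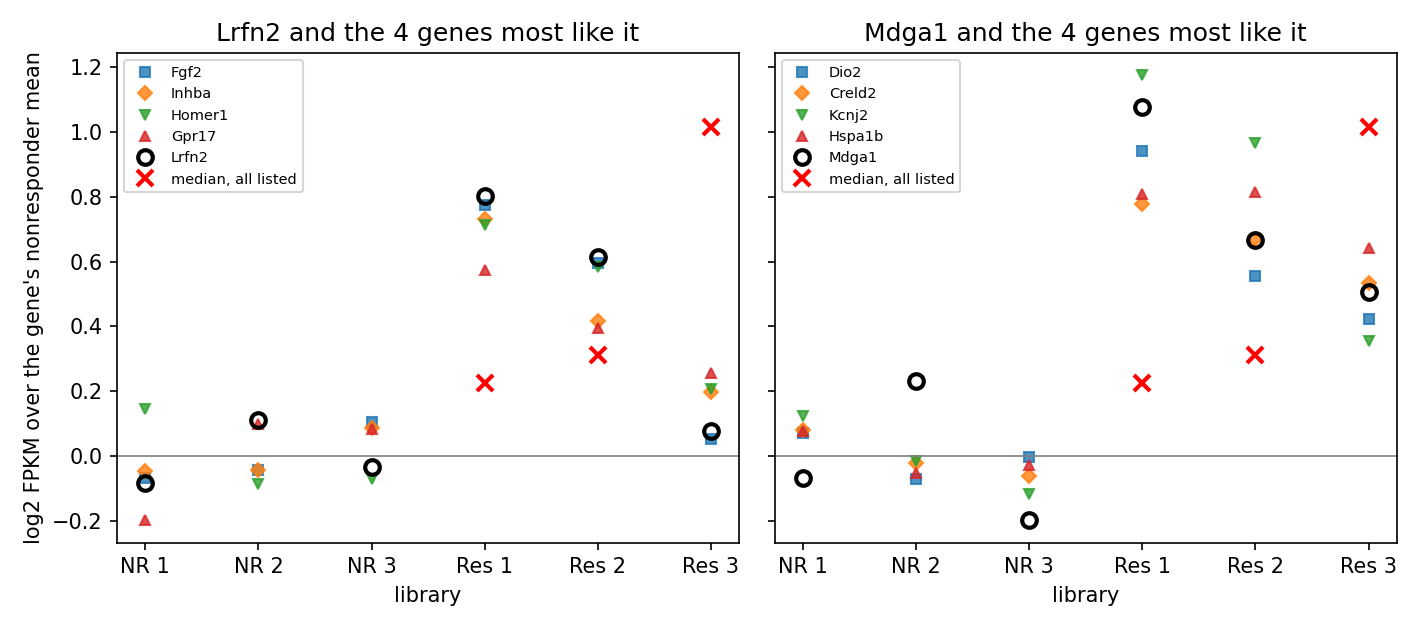
Log2 FPKM over the gene's own nonresponder mean in each library for Lrfn2 (left) and Mdga1 (right) as open circles, with the 4 most similar listed genes. Crosses give the median of all listed genes in each responder, which is highest in responder replicate 3, at 1.02, where Lrfn2 stands at 0.08 and Mdga1 at 0.50.

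On chromosome 17, which holds 50 listed genes, the nearest listed neighbours of Mdga1 were Zfand3 at a distance of 34964 bases and Cdkn1a at 727229 bases. Zfand3, a zinc finger gene, stood at 18.1, 18.0 and 16.4 FPKM in nonresponders and at 23.3, 21.9 and 20.4 FPKM in responders. Cdkn1a, the cell cycle inhibitor p21, stood at 7.05, 5.36 and 5.29 FPKM and at 9.60, 8.01 and 6.73 FPKM. In both neighbours the responders had the order seen in Mdga1, which 3.20% of all listed genes had, and in Cdkn1a the groups overlapped. Whether position on the chromosome plays a part was not tested. The nearest listed neighbours of Lrfn2 were the noncoding genes Gm23657 and E430014B02Rik, at 1939463 and 2647941 bases, with at most 8 and 11 reads in a library.

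Markers of neurons could not serve to set the levels of Lrfn2 and Mdga1 against the number of neurons, as 0 of 9 general neuron markers were in the table. Of 8 upper layer markers, Calb1 and Lamp5 were listed, with summed levels from 50.8 to 58.9 FPKM across nonresponders and from 67.5 to 98.8 FPKM across responders. Of 10 symbols listed for deep layer neurons, of which Ctgf and Ccn2 name the same gene, only Rorb was in the table, and Rorb is best known as a marker of layer 4 rather than of the deep layers. Rorb stood at 2.57 to 2.73 FPKM in nonresponders and at 3.05 to 3.48 FPKM in responders, and the table holds no value for the other deep layer markers. The 4 of 10 listed astrocyte markers summed to 192 to 217 FPKM and 245 to 333 FPKM, and the 5 of 10 microglia markers to 72.1 to 84.6 FPKM and 94.96 to 192 FPKM. The 8 of 12 leptomeningeal markers summed to 8.55 to 11.5 FPKM and 15.7 to 24.0 FPKM. The 2 of 8 striatal markers, Penk and Tac1, summed to 12.5 to 16.9 FPKM and 18.2 to 32.8 FPKM. Except for Rorb, each of the sums given so far was highest in responder replicate 3, where Lrfn2 and Mdga1 had their lowest responder level. That library was also the highest in 87.6% of all listed genes, so the sums follow the table as a whole. Single members could differ from their sum. Leptomeningeal Slc13a4 and Slc22a6 and microglial Tmem119 were lower in responder replicate 3 than in the mean of responder replicates 1 and 2. Gpr17, 1 of 5 markers of oligodendrocyte precursors, was lowest of the responders there, at 6.81 FPKM beside 4.97 to 6.11 FPKM across nonresponders. Kl, 1 of 6 choroid plexus markers, was at 0.525 to 0.538 FPKM across responders and 0.256 to 0.474 FPKM across nonresponders. None of 8 oligodendrocyte markers and none of 8 markers of endothelial cells and pericytes was in the table. No listed member of these lists was at 0 in any library, and the part of cell composition in the levels of Lrfn2 and Mdga1 was not tested.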

How the data were processed

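PolyA RNA of prefrontal cortex from 6 mice was sequenced after preparation with a SMARTER kit, per the labels' protocols. The genome build was mm10, per the submitters' processing notes. The sources used here do not give the aligner, counter, strand setting or test. The deposited table holds whole read counts per library, FPKM values, a log2 fold change and p-values, per the file headers. The deposited FPKM values equal the count divided by gene length and by 1 scale per library, 14981505 to 19298950 reads. Listed genes hold 1989534 to 3486903 reads per library, and full depth is unknown. Responder replicate 3 had both the most reads in listed genes, at 3486903, and the smallest scale, at 14981505 reads. The next were responder replicate 1 with 2464228 reads in listed genes and responder replicate 2 with a scale of 16343097 reads. The table has 6 columns of per-sample values that match no label and were not used.

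Lrfn2, Mdga1 and the gene lists were chosen with earlier results of these data known. Group differences are log2 ratios of mean FPKM with no pseudocount and no test, and the p-values are the authors' deposited ones. Exact Poisson intervals used scipy 1.17.1, TMM scaling edgeR 4.0.16. Named genes were the pair, listed members of the synaptic lists, the 4 most similar genes to each, the nearest listed neighbours, and up to 2 listed markers per cell type list. Genes of the Lrfn and Mdga families were read from GENCODE M21. The steps across genes were tested on simulated data. Alternatives were 4 scalings, 2 summaries, 2 thresholds, and leaving out each library. Counts without responder replicate 3 were added after seeing the data. List genes were matched by symbol, and 212 of 215 symbols were in the GENCODE gene names. Insyn2a and Ctgf are there under another name, also absent from the table, and Nlgn4l under none. A gene of the synaptic lists is not reported here.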

Additional observations from a re-analysis of the deposited data

How the results depend on the processing

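Both genes had been selected as higher in responders, so a difference that stays above 0 is no independent support for it. Each setting was changed alone, and both differences then stayed above 0. Leaving out a library under another scaling was not tried. With TMM scaling, responder replicate 3 lay below the nonresponder mean in both genes, at -0.90 for Lrfn2 and -0.47 for Mdga1 on the log2 scale. Scaled by the sum of listed reads, the log2 difference was 0.14 for Lrfn2 and 0.37 for Mdga1, by TMM 0.12 and 0.34, by median of ratios 0.11 and 0.34, and by TMM outside the mitochondrial chromosome 0.12 and 0.34. All 4 use genes selected as higher in responders as the scale. With 1 added to FPKM, Mdga1 was 0.47, as a pseudocount lowers the change of a gene near 1 FPKM. Leaving out a library gave 0.37 to 0.71 for Lrfn2, 0.59 to 0.90 for Mdga1, and -1.20 to -0.59 for the difference of their ratio. At adjusted p-values of 0.1 and 0.2 in the authors' deposited table, 3 and 5 of the 7 listed synaptic genes passed. These include Mdga1 at both thresholds and Lrfn2 at 0.2, which were chosen from this contrast. Of all listed genes, 50, or 3.64%, and 375, or 27.3%, passed. Of the 8 most similar genes, 1 to 7 remained when a library was left out, and the cause was not tested. The groups did not overlap in 1010 listed genes, or 73.5%, and in 1019, or 74.1%, without responder replicate 3. No paired analysis was possible because the labels do not tie equal replicate numbers to a shared cage or litter. Counts ran from 201 to 695 reads per library. For a single library at the mean count of its group, counting alone gives an error of 4.36% to 6.77%.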

Other observations

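The 9 listed genes in which responder replicate 3 lay below the highest nonresponder were named after their values were seen. They were Lrfn2, Fgf2, Cbln2, Cdkn1a, Dnajc3, Slco3a1, Ezr and the noncoding genes Gm37885 and Gm25911. Dnajc3, a cochaperone of the endoplasmic reticulum, stood at 16.3, 15.6 and 12.6 FPKM in responder replicates 1, 2 and 3, with the highest nonresponder at 12.8 FPKM. Ezr, which encodes the membrane linker ezrin, stood at 21.3, 20.3 and 16.0 FPKM, with the highest nonresponder at 16.1 FPKM.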
